A study of Mus musculus with 16 samples.

Results

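The cytoplasmic ribosomal protein genes encode the proteins of the large (Rpl) and small (Rps) subunits of the ribosome. They were taken as every gene whose symbol is Rpl or Rps followed by a number and, at most, the letter a, l or x. Pseudogene symbols ending in -ps and a number were left out and served as a contrast. The rule found 80 symbols, 48 for the large and 32 for the small subunit. Of these, 77 stood among the 43984 genes of the histone table and 79 among the 55471 genes of the methylation table, with 76 in both. Rpl6l, Rpl32l and Rps4l were listed for methylation alone, and GENCODE annotates all 3 as processed pseudogenes. Rps3a was listed under that symbol for histone marks alone, and Rpl24 had a different Ensembl gene in each table. Of the -ps pseudogenes, 218 were in the histone table and 310 in the methylation table.

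Ribosomal protein genes are among the most actively transcribed genes of dividing cells, and their products are made in equal numbers for assembly with ribosomal RNA. Their promoters lie as a rule in CpG islands, and many of their mRNAs begin with a run of pyrimidines, the 5′ terminal oligopyrimidine tract, through which mTOR signalling controls their translation. Reverse-transcribed copies of their mRNAs have left many processed pseudogenes in mammalian genomes, and such copies usually lack the promoter of the parent gene. A few retained copies encode working proteins in restricted tissues.

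The values came from mouse induced pluripotent stem cell (iPSC) lines reprogrammed from kidney proximal tubule cells (PTC11 and PTC12) or from tail tip fibroblasts (TTF1 and TTF4). All donor mice were transgenic for SLC34a1-GCE and tdTomato as well as for rtTAROSA (neo-in) and also OKMS-250, heterozygous at each, in which doxycycline induces the reprogramming factors. They were fed tamoxifen from 6 weeks of age for 2 weeks and killed at 8–10 weeks. In PTC the SLC34a1 promoter drove Cre and cells were sorted for tdTomato and GFP, whereas TTF received Cre from an episomal plasmid. Each line was a clone selected to grow without doxycycline and was cultured on feeder cells, so that origin and the way Cre was delivered cannot be told apart. The submitters state that 2 separate mice were used but do not tie lines to mice. For H3K4me3, H3K36me3 and CpG methylation each line was the replicate, with a single library of its own per assay. The p-values rest on no more than the spread between lines of the same origin. The limma test with a trend estimates this spread for a gene with the help of other genes of similar mean level. A standard error (SE) or p-value given below is thus not a measure of that gene's own lines alone.

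H3K4me3 (a mark of active promoters) and H3K36me3 (a mark of gene bodies laid down during transcription elongation) were given as RPKM above input in called peaks. A gene without a peak had no value. CpG methylation at the transcription start was given as a fraction. Depth and coverage are not in the tables and are unknown here. The lines stood apart in every assay. The median H3K4me3 over all genes with a value ran from 3.65 to 5.01 RPKM and was higher in PTC12 and TTF1. The median H3K36me3 ran from 1.18 to 4.01 RPKM and was higher in PTC12 and TTF4, and the median methylated fraction ran from 0.374 to 0.385 in TTF1 and PTC11 but was 0.539 in PTC12 and 0.770 in TTF4. Of 15 pluripotency genes, 13, 13, 14 and 10 had H3K4me3 in PTC11, PTC12, TTF1 and TTF4, against 34.4%, 45.4%, 44.2% and 34.9% of all genes. Of 6 proximal tubule genes 1 or 2 had it in each line, and of 8 fibroblast genes 2 to 6. The median methylated fraction of the pluripotency genes was 0.0284, 0.106 and 0.103 in PTC11, PTC12 and TTF1 but 0.362 in TTF4. TTF4 also had the highest median for the proximal tubule genes (0.871) and the fibroblast genes (0.488).

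The promoter sequences of 59 of the 80 ribosomal protein genes were read from RefSeq starts on GRCm38.p6, the mm10 build that the study used. A pyrimidine tract was searched as a run of 8 or more C or T on the gene's strand with a base within 10 bases of the start, and 26 of the 59 (44.1%) held one, against 14% of 32851 promoters in the table. In the 300-base window (250 bases before the start and 50 from it), searched on both strands, the ETS core CCGGAAG was present in 23 of 59 (39.0%) against 8.86% of all promoters. The Sp1 box GGGCGG was present in 33 (55.9%) against 35.7%, and the YY1 core AAGATGGC in 4 (6.78%) against 2.75%. The letters TATAAA, searched on the gene's strand between 45 and 16 bases before the start, were in 0 of 59 and in 2.14% of all promoters. Rpl36a and Rps2, printed below, hold these letters after the RefSeq start, outside the range searched. The median window held 21 CpGs, against 7 over all promoters. These matches describe letters, not bound factors.

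The stretches below run from 60 bases before the RefSeq start to 30 bases from it, 5′ to 3′ on the gene's strand, with the pyrimidine tract, where present, in capitals. Rpl4 and Rps9 were among the 5 genes with the highest H3K4me3, Rpl27a holds a tract of 20 bases and had one of the 3 largest negative differences in H3K4me3, Rpl36a had the lowest mean H3K4me3 among genes with a value in all 4 lines, and Rps2 had the largest difference in methylation between the origins. Rpl10l, Rpl39l and Rpl3l are paralogs with methylated starts. In the last 4 of these 8 stretches, and in Rpl36a, no tract was found by the rule.
Rpl4 (chr9:64173327-64173416, + strand): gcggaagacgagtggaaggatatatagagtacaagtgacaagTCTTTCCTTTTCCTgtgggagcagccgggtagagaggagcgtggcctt
Rps9 (chr7:3703981-3704070, + strand): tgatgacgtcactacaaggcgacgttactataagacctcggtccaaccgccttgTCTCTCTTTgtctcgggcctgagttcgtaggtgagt
Rpl27a (chr7:109519135-109519224, + strand): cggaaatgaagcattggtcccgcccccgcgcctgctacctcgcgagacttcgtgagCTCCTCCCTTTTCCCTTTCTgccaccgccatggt
Rpl36a (chrX:134585594-134585683, + strand): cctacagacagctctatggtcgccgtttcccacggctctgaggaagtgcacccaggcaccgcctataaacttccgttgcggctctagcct
Rps2 (chr17:24720003-24720092, + strand): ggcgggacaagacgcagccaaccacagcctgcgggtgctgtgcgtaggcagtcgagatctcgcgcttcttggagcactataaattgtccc
Rpl10l (chr12:66284372-66284461, - strand): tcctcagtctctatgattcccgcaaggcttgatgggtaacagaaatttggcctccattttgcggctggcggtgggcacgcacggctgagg
Rpl39l (chr16:10170168-10170257, + strand): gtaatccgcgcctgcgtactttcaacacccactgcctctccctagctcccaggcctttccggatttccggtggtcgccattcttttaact
Rpl3l (chr17:24727766-24727855, + strand): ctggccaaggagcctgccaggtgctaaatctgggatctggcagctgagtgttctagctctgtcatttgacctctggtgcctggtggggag

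H3K4me3 was found at nearly every ribosomal protein gene start. Of 77 genes, 72 in PTC11 and all 77 in PTC12 had a value, as did 77 in TTF1 and 73 in TTF4, whereas 34.4%, 45.4%, 44.2% and 34.9% of all genes had one in these lines. A value in all 4 lines was present for 72 genes (93.5%), against 31.2% of all genes. Where the mark was present its level was close to that of other marked genes. The median over the ribosomal protein genes was 4.00, 5.12, 5.52 and 3.82 RPKM across PTC11, PTC12, TTF1 and TTF4, and it exceeded the median of all genes with a value by 0.174 to 0.529 RPKM in 4 of 4 lines. Among genes with a value in all 4 lines the order turned in 2 of the lines, with medians of 5.17 RPKM for the ribosomal protein genes against 5.31 RPKM for all genes in PTC12 and 5.62 against 5.72 RPKM in TTF1. In PTC11 and TTF4 these medians were 4.00 against 3.73 RPKM and 3.83 against 3.72 RPKM. The small and large subunits had similar medians in PTC12, at 5.17 and 5.08 RPKM, and in PTC11, at 4.00 and 4.00 RPKM. In TTF1 the small subunit genes had a median of 6.08 RPKM and the large subunit genes 5.28 RPKM, whereas in TTF4 they had 3.73 and 3.82 RPKM. The order of genes was only partly shared between lines, since Spearman correlations over the 72 genes ran from 0.209 (PTC11 with PTC12) to 0.552 (PTC12 with TTF1), within the same start annotation and with libraries that differ in peak calling.

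**Figure D1:**
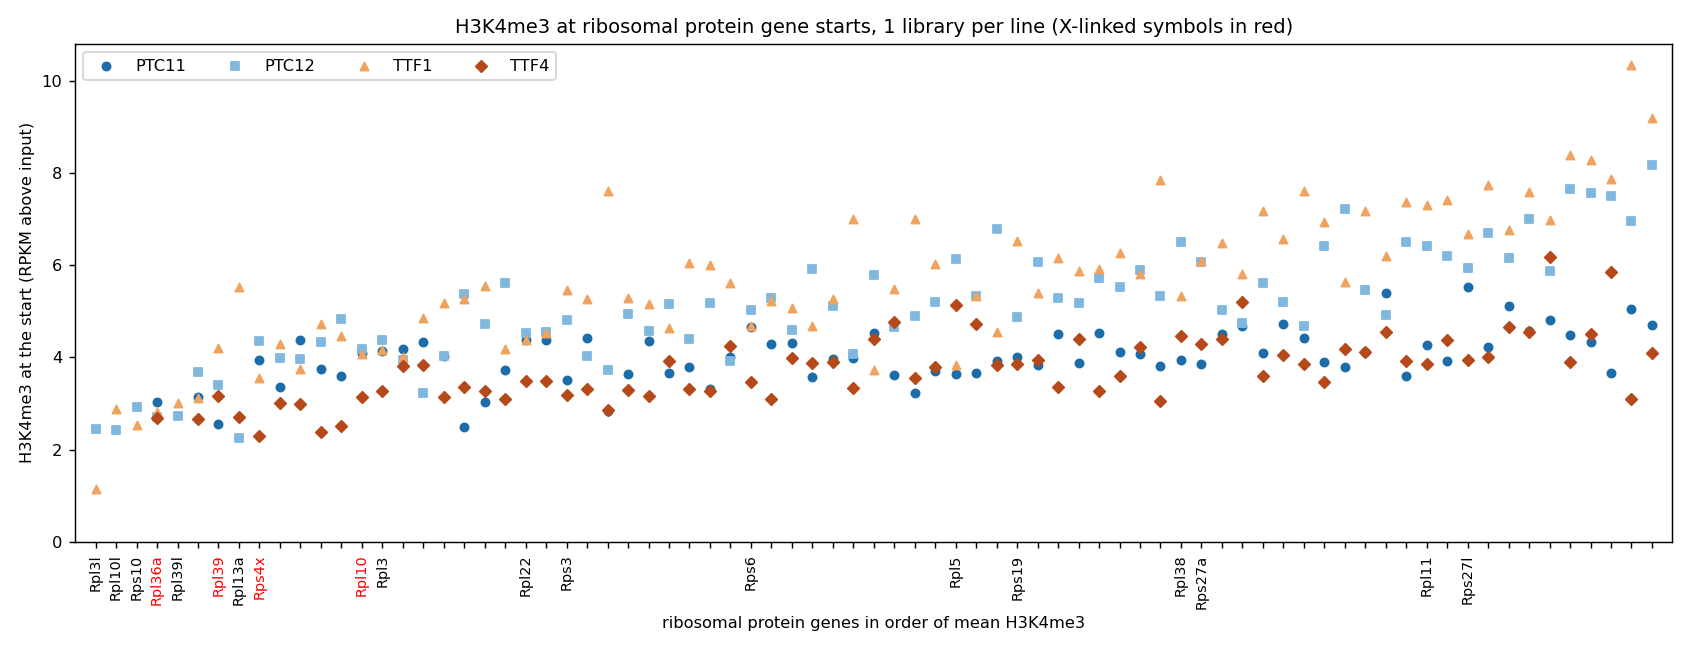
H3K4me3 in RPKM above input (y axis) at the starts of 77 ribosomal protein genes (x axis, ordered by the mean of the lines with a value), with 1 point per line and with symbols shown for the X-linked genes (red), the paralogs of restricted expression, genes of separate roles and genes without a value in every line. The points of PTC12 and TTF1 lie mostly above those of PTC11 and TTF4, and the genes at the far left include those without a value in PTC11 and TTF4.

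Rpl4 and Rps9, whose promoters are printed above, were among the 5 genes with the highest mean H3K4me3 and are named after their values were seen. Rpl4, which lines the peptide exit tunnel, had 4.34 and 7.57 RPKM in PTC11 and PTC12 and 8.29 and 4.50 RPKM in TTF1 and TTF4. Rps9, of the small subunit, had 4.49, 7.65, 8.39 and 3.90 RPKM in the same order of lines. PTC12 and TTF1 were the 2 highest lines at both genes, so that one line of each origin was high. This split held for 57 of the 72 genes, and for 81.4% of all genes compared, which is the line difference of the whole table.

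Among the 72 genes with a value in all lines, the 4 lowest means included 3 of the 4 X-linked genes. Rpl36a, whose product lies at the E site of the large subunit, had the lowest mean of these 72, with 3.04, 2.70, 2.81 and 2.69 RPKM across PTC11, PTC12, TTF1 and TTF4. Rpl17 had 3.13, 3.68, 3.13 and 2.67 RPKM, and carried the same 4 values as 1 other gene. In total 12 ribosomal protein genes, Rpl17 among them, shared their H3K4me3 values with another gene. Rpl39, a component of the peptide exit tunnel, had 2.57, 3.40, 4.21 and 3.17 RPKM. Rps4x had 3.94, 4.36, 3.55 and 2.29 RPKM, and Rpl10, which joins the large subunit late in its maturation, had 4.10, 4.18, 4.08 and 3.15 RPKM. The median of the 4 X-linked genes lay below that of the 73 autosomal ones in 4 of 4 lines, at 3.49 against 4.02 RPKM in PTC11 and 3.79 against 5.17 RPKM in PTC12, and at 3.82 against 5.61 RPKM in TTF1 and 2.92 against 3.84 RPKM in TTF4. Over all genes with a value, the X chromosome was also lower in 4 of 4 lines, at 3.50 against 3.69 RPKM in PTC11 and 3.45 against 5.08 in TTF1.

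Genes known for separate roles lay between these ends. Rpl5 had 3.65, 6.15, 3.83 and 5.14 RPKM across PTC11, PTC12, TTF1 and TTF4, and Rpl11, its partner in binding Mdm2, had 4.26, 6.43, 7.30 and 3.85 RPKM. TTF1 was high at Rpl11 and low at Rpl5. Rps19 had 4.00, 4.87, 6.53 and 3.85 RPKM, and Rpl38, whose loss alters the mouse axial skeleton, had 3.94, 6.50, 5.32 and 4.47 RPKM. Rpl3, a protein at the peptidyl transferase centre, had 4.13, 4.37, 4.16 and 3.27 RPKM, and Rpl22, an RNA-binding protein with a paralog in Rpl22l1, had 4.37, 4.53, 4.38 and 3.48 RPKM. At Rpl3 and Rpl22 only TTF4 lay apart.

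The 5 genes without a value in every line were Rpl3l, Rpl10l, Rpl39l, Rps10 and Rpl13a. Rpl10l and Rpl39l, known from the testis, and Rpl3l, known from striated muscle, had values in PTC12 and TTF1 alone. Rpl10l had 2.42 and 2.87 RPKM there, Rpl39l had 2.73 and 3.00 RPKM, and Rpl3l had 2.44 and 1.15 RPKM. Rps27l, a paralog known as a p53 target, was by contrast marked in every line, at 5.52, 5.93, 6.67 and 3.95 RPKM in PTC11, PTC12, TTF1 and TTF4.

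Rps10, whose human counterpart is mutated in Diamond-Blackfan anaemia, had 2.91 RPKM in PTC12 and 2.54 RPKM in TTF1 and no value in the other lines. Rpl13a, known as a translational silencer in the GAIT complex, had 2.25 RPKM in PTC12 and, of the TTF lines, 5.52 RPKM in TTF1 and 2.70 RPKM in TTF4. The start that the histone table assigns to Rps10 lies 1385 bp from the nearest RefSeq start, and that of Rpl13a lies 7486 bp from it, outside the 2 kb before to 3 kb after the start in which peaks were counted. Among the 58 genes with both starts, 54 lay within 500 bp of each other, and 51 of these had H3K4me3 in all lines. The remaining 4 were Rpl13a, Rpl18, Rps2 and Rps10, of which 2 had a value in all lines. The part of the start annotation in these values was not tested.

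The -ps pseudogenes had a value for H3K4me3 in 6, 63, 49 and 10 of 218 rows in PTC11, PTC12, TTF1 and TTF4, and 0 of them had one in all 4 lines. No line had a value at 138 of the 218. Their medians where a value existed were 1.78, 1.10, 1.22 and 0.761 RPKM. Reads from near-identical copies cannot always be assigned to 1 place, so that levels at a pseudogene and its parent gene may share reads.

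No ribosomal protein gene passed the test for a difference in H3K4me3 between the origins. On log2(RPKM + 1), limma with Benjamini-Hochberg adjustment over 13709 genes called 66 genes (0.481%) and 0 of the 72 ribosomal protein genes, of which 0 had an unadjusted p under 0.05 (0.977% of all genes did). With genes of a mean of at least 1 RPKM, which kept the 72, limma called 0 of 13536 genes. Of these, 14 had an unadjusted p under 0.05. The shares over all genes thus depend on genes of lower level, and 0 calls among the 72 says little. The largest positive difference of TTF minus PTC was at Rps24, with 2.84 and 3.74 RPKM in PTC11 and PTC12 and 7.61 and 2.85 RPKM in TTF1 and TTF4. TTF1 alone was high there, and the difference was 0.43 on the log2 scale (SE 0.376, adjusted p = 1). Rpl37 stood at 0.28 (SE 0.431). The largest negative difference was at Rps4x, -0.41 (SE 0.324, adjusted p = 1), where both TTF lines lay below both PTC lines, and Rpl27a stood at -0.28 (SE 0.389).

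Both TTF lines exceeded both PTC lines at 4 genes (5.56%; 5.04% of all genes compared) and lay below them at 5 (6.94%; 3.17% of all genes). The 4 were Rpl19, Rps12, Rps13 and Rps15, and the 5 included Rps4x, Rps28, Rpl17 and Rpl10. Rpl19, Rps12, Rps13, Rps15 and Rps28 are named after their values were seen. The median difference over the 72 genes was 0.0062 against 0.045 over all genes on the log2 scale. Its sign rests on the processing and the lines included, since it was -0.050 with quantile normalization, -0.038 with lines centred on their median and from -0.24 to 0.28 with a line left out.

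H3K36me3 was patchier over these gene bodies, and its levels did not group the lines by origin. PTC11 had a value at all 77 genes and PTC12 at 63, TTF1 at 72 and TTF4 at 45, while 68.0%, 52.5%, 53.4% and 46.3% of all genes did. A value in all 4 lines was present at 44 genes (57.1%), against 38.7% of all genes. The median over the ribosomal protein genes with a value was 1.90, 4.86, 1.37 and 4.09 RPKM across PTC11, PTC12, TTF1 and TTF4, above that of all genes by 0.088 to 0.976 RPKM in 4 of 4 lines. Both PTC12 and TTF4 lay above both PTC11 and TTF1 at 40 of the 44 genes, a pattern that 93.6% of all genes compared shared. The lines with the higher levels were those with fewer genes holding a value.

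**Figure D2:**
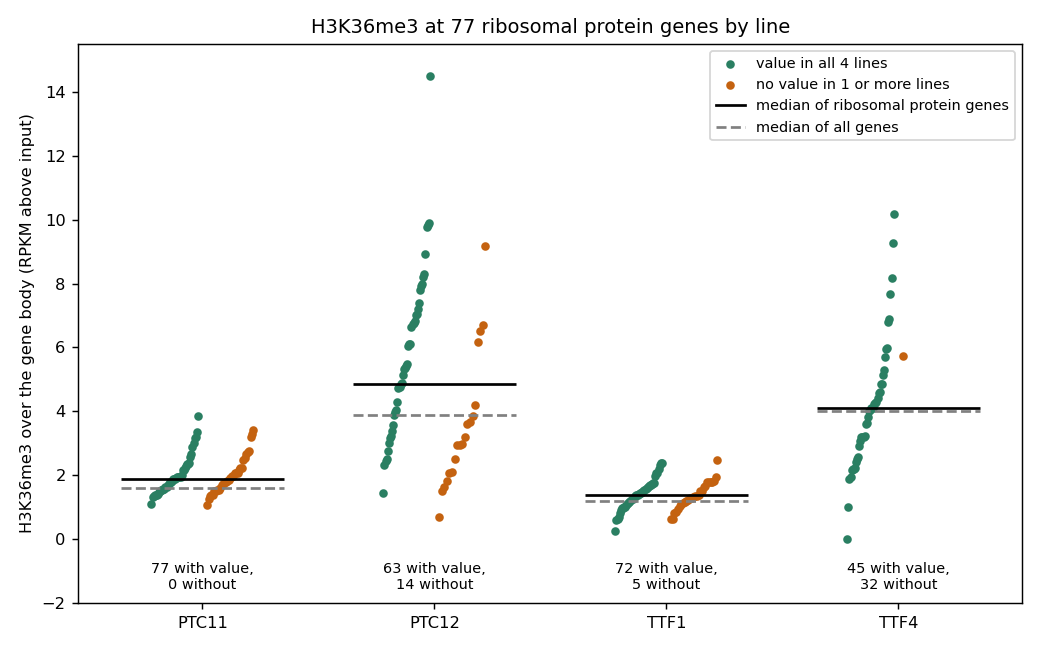
H3K36me3 in RPKM above input (y axis) for each iPSC line (x axis), with 1 point per ribosomal protein gene, split by whether the gene had a value in all 4 lines. Solid and dashed lines are the medians of the ribosomal protein genes and of all genes, and TTF4 has 32 genes without a value.

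The genes were short. Their median length was 3232 bp, against 4584.5 bp over all genes in the table. The 44 genes with H3K36me3 in every line had a median length of 3653 bp, the 17 with 3 lines 2653 bp, the 14 with 2 lines 2787.5 bp and the 2 with 1 line 3911 bp, so that length did not fall in step with the number of lines. None of the 4 X-linked genes had a value in PTC12 or TTF4, whereas 86.3% and 61.6% of the autosomal ones did. Among all X-linked genes 31.1% and 25.2% had a value in these lines, against 54.5% and 48.3% of autosomal genes. The spans of 28 ribosomal protein genes held 1 or more small nucleolar RNA genes, which guide the modification of ribosomal RNA, and 57.1% of them had H3K36me3 in all lines, as did 57.1% of the 49 others.

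Rps6, the substrate of the S6 kinases, had the highest mean H3K36me3, with 2.34 and 14.5 RPKM in PTC11 and PTC12 and 1.37 and 5.29 RPKM in TTF1 and TTF4. Rpl35a had 1.93, 7.40, 2.08 and 10.2 RPKM. At both genes PTC12 and TTF4 were high. The lowest means were at Rpl15 (1.38, 1.45, 0.914 and 1.88 RPKM), Rpl29 and Rpl18 (1.94, 2.45, 1.51 and 2.20 RPKM). Rpl18 is one of the genes whose listed start lies far from the RefSeq start, at 2614 bp.

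In H3K36me3, limma called 19 of 17039 genes (0.112%) and 0 of the 44 ribosomal protein genes, of which 1 had an unadjusted p under 0.05 (0.681% of all genes did). That gene was Rpl29, with 2.23 and 2.50 RPKM in PTC11 and PTC12, 0.998 RPKM in TTF1 and a listed 0 in TTF4. Its difference of TTF minus PTC was -1.25 on the log2 scale (SE 0.50, limma adjusted p = 1), and both TTF lines lay below both PTC lines. Rpl13, named after its values were seen, was the other such gene, and the 2 make up 4.55% of the 44, against 3.05% of all genes. No gene had both TTF lines above both PTC lines, against 0.452% of all genes. This fit kept the level differences between whole lines, and the median SE over the 44 genes was 1.11. With lines centred on their median, limma gave 4 of the 44 an unadjusted p under 0.05, against 358 of 17039 genes. With quantile normalization it gave 4, against 502 of 17039. Adjusted calls over all genes were 0 in both settings. With genes of a mean of at least 1 RPKM, which kept the 44, limma called 0 of 16521 genes. There 0 of the 44 and 4 of the 16521 had an unadjusted p under 0.05. The shares over all genes in the first fit thus depend on genes of lower level.

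Rps24 and Rpl14 followed Rpl29 at -1.13 (SE 1.21) and -1.03 (SE 1.23), and the largest positive differences were 0.24 at Rpl35a (SE 1.44), 0.16 at Rpl22 (SE 1.25) and 0.13 at Rps21 (SE 1.04). Only 5 of the 44 differences were above 0 (11.4%), against 25.3% of all genes compared. The median was -0.32 against -0.14 over all genes. Without PTC12 the median over these genes was 0.25 and without TTF1 it was 0.14, so that its sign rests on the lines included.

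H3K27me3, the Polycomb mark of repressed genes, had a value at 0 of the 77 ribosomal protein genes in each of its 4 libraries. These libraries listed only 69, 144, 52 and 11 of the 43984 genes. With so few genes listed, a 0 at 77 genes says little about this mark there. The first and the second are both labelled PTC11, but the sources used here do not name the line of the second alike, so which PTC line it came from is uncertain.

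CpG methylation at the starts was low in every line. The median fraction over the 79 genes was 0.0406, 0.0587, 0.0440 and 0.196 across PTC11, PTC12, TTF1 and TTF4. Over all genes it was 0.385, 0.539, 0.374 and 0.770, and over the -ps pseudogenes 0.544, 0.689, 0.555 and 0.881. The ribosomal protein genes lay below the pseudogenes in 4 of 4 lines, with differences in median from -0.684 to -0.503. A fraction below 0.2 was found at 72 and 66 of 79 genes in PTC11 and PTC12 and at 70 and 40 in TTF1 and TTF4, against 30.7%, 24.4%, 32.1% and 13.6% of all genes. For the pseudogenes it was found at 8 of 297, 0 of 300, 17 of 295 and 0 of 296. TTF4 was the highest line at 66 of the 79 genes, and at 75.4% of all genes, so the rise in this line was not limited to these starts.

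**Figure D3:**
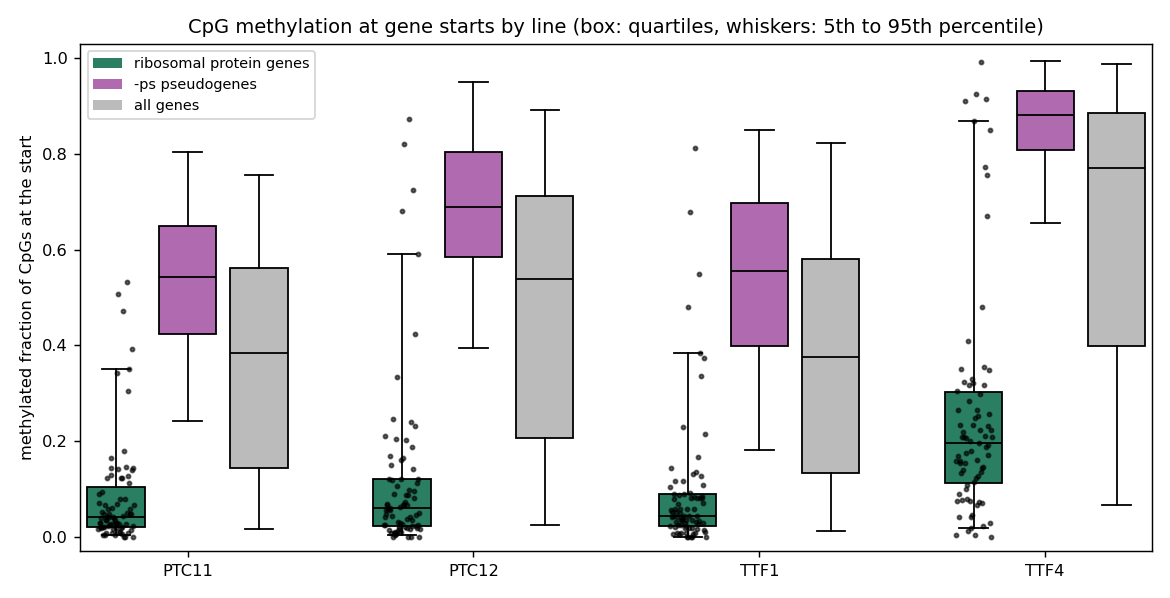
Methylated fraction of CpGs at gene starts (y axis) by iPSC line (x axis) for the ribosomal protein genes (each also a point), the -ps pseudogenes and all genes. Boxes show quartiles and whiskers the 5th to 95th percentile; the box of the ribosomal protein genes lies below the box of the pseudogenes in each line.

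The lowest means were at Rpl10 (0.0227 and 0 in PTC11 and PTC12 and 0.0096 and 0 in TTF1 and TTF4), Rpl37 (0, 0, 0.0157 and 0.0225) and Rpl39 (0, 0.0233, 0.0139 and 0.0275). Rpl10 and Rpl39 are X-linked, and in TTF4, the line with the highest median fraction, they had 0 and 0.0275. The other 2 X-linked genes, Rpl36a and Rps4x, had 0.209 and 0.223 in that line. Genes with well known separate roles were mostly low. Rpl5 and Rpl11, which bind Mdm2 together with 5S ribosomal RNA, had 0.0670 and 0.0471 in PTC11 and 0.218 and 0.133 in TTF4. Rps19, the first gene found mutated in Diamond-Blackfan anaemia, had 0.0467 and 0.205 in these lines, and Rps27a, which encodes ubiquitin fused to a ribosomal protein, had 0.0101 and 0.0655. Rps3, a small subunit protein at the mRNA entry site, was higher, with 0.13, 0.333, 0.229 and 0.317 in PTC11, PTC12, TTF1 and TTF4. Rpl3 was higher in TTF4 alone, with 0.355 there and 0.050, 0.022 and 0.026 in PTC11, PTC12 and TTF1. Rpl11 had 0.168 in PTC12.

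The mean over the lines was above 0.25 at 10 genes, against 73.9% of all genes. Rpl10l had 0.471, 0.873, 0.812 and 0.991 across PTC11, PTC12, TTF1 and TTF4. Rpl6l had 0.508, 0.820, 0.678 and 0.925, and Rpl39l had 0.533, 0.726, 0.550 and 0.773. Rpl32l had 0.342, 0.680, 0.479 and 0.869, and Rpl3l had 0.350, 0.425, 0.336 and 0.671. These 5 are paralogs of restricted expression or annotated pseudogenes. Rps4l, the third annotated pseudogene, had 0.0409, 0.246, 0.0860 and 0.911, so that only TTF4 was high.

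The other 4 genes above 0.25 were Rpl17, Rps2, Rps10 and Rps3. Rpl17 had 0.392, 0.590, 0.373 and 0.851 while H3K4me3 had been present in all lines. Rps2, at the mRNA entry channel of the small subunit, had 0.305, 0.0953, 0.383 and 0.914, and Rps10 had 0.112, 0.232, 0.127 and 0.757. The start that the methylation table gives Rps2 lies 1947 bp from the RefSeq start, the one printed above, with 21 CpGs within 1 kb of the listed start and 115 within 1 kb of the RefSeq start. For Rps10 the distance was 1425 bp, with 39 and 102 CpGs. Rpl17 also had 21 CpGs around its listed start.

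The 10 genes had a median of 39 CpGs within 1 kb of the listed start, against 96 for the 69 others. Among the 58 genes with a RefSeq start, the 5 whose listed start lay over 500 bp away (Rps2, Rps10, Rps24, Rpl18 and Rps25) had a median fraction of 0.112 in PTC11 and 0.480 in TTF4, and the 53 others 0.0403 and 0.168. The part of the listed start in the methylation values was not tested.

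**Figure D4:**
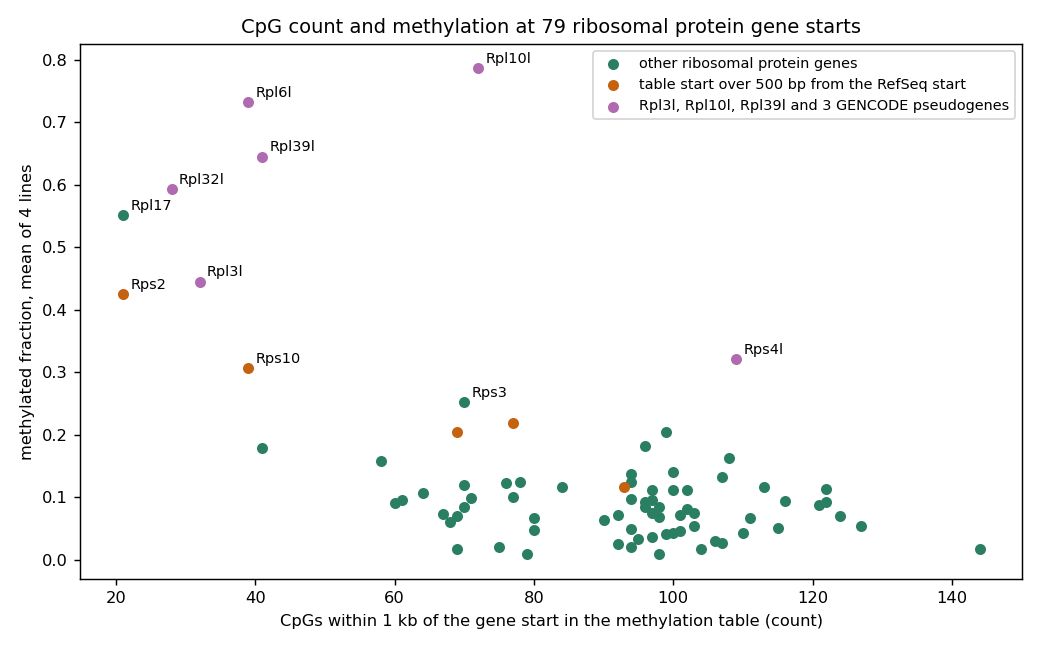
Methylated fraction (y axis, mean of 4 lines) against the number of CpGs within 1 kb of the listed start (x axis) for 79 ribosomal protein genes. Named genes have a mean above 0.25; Rps2 and Rps10 (orange) are among 5 genes whose listed start lies over 500 bp from the RefSeq start.

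No ribosomal protein gene passed the test for a difference in methylation when both lines of each origin were included. On fractions centred on the mean of each line, limma called 2 of 50657 genes (0.00395%) and 0 of 79 ribosomal protein genes, of which 1 had an unadjusted p under 0.05 (4.72% of all genes did). That gene was Rps2, with a difference of TTF minus PTC of 0.36 (SE 0.153, limma adjusted p = 0.930), where both TTF lines exceeded both PTC lines. Rps4l followed at 0.27 (SE 0.149) and Rps10 at 0.18 (SE 0.142). Without TTF1, leaving TTF4 as the only TTF line, limma called Rps2 (0.49, adjusted p = 0.0210) and Rps4l (0.55, adjusted p = 0.00309), which make up 2.53% of the 79 genes, against 2.01% of all genes in the same fit. The spread in this fit came from the PTC lines alone, and TTF4, the line with the highest methylation over all genes, was assumed to vary like them. The largest negative differences were -0.14 at Rpl19 (SE 0.128), -0.11 at Rps12 (SE 0.128) and -0.11 at Rps21 (SE 0.126). Centring subtracted 0.372 and 0.482 in PTC11 and PTC12 and 0.379 and 0.649 in TTF1 and TTF4. It lowered every difference by the same amount, also where fractions lay near 0. Rpl10, with 0.0227 and 0 in PTC11 and PTC12 and 0.0096 and 0 in TTF1 and TTF4, stood at -0.094. A negative difference here thus need not be a lower deposited fraction.

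The median difference over the 79 genes was -0.019 after centring, against -0.010 over all genes, and 0.068 without centring. As deposited, before centring, both TTF lines exceeded both PTC lines at 19 of 79 genes (24.1%; 20.5% of all genes) and lay below them at 0 (3.36% of all genes), and after centring at 4 (15.0% of all genes) and 3 (12.8%). The 4 included Rps2, Rps7 and Rpl21 and the 3 were Rpl6, Rps15 and Rpl26, all but Rps2 named after their values were seen.

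**Figure D5:**
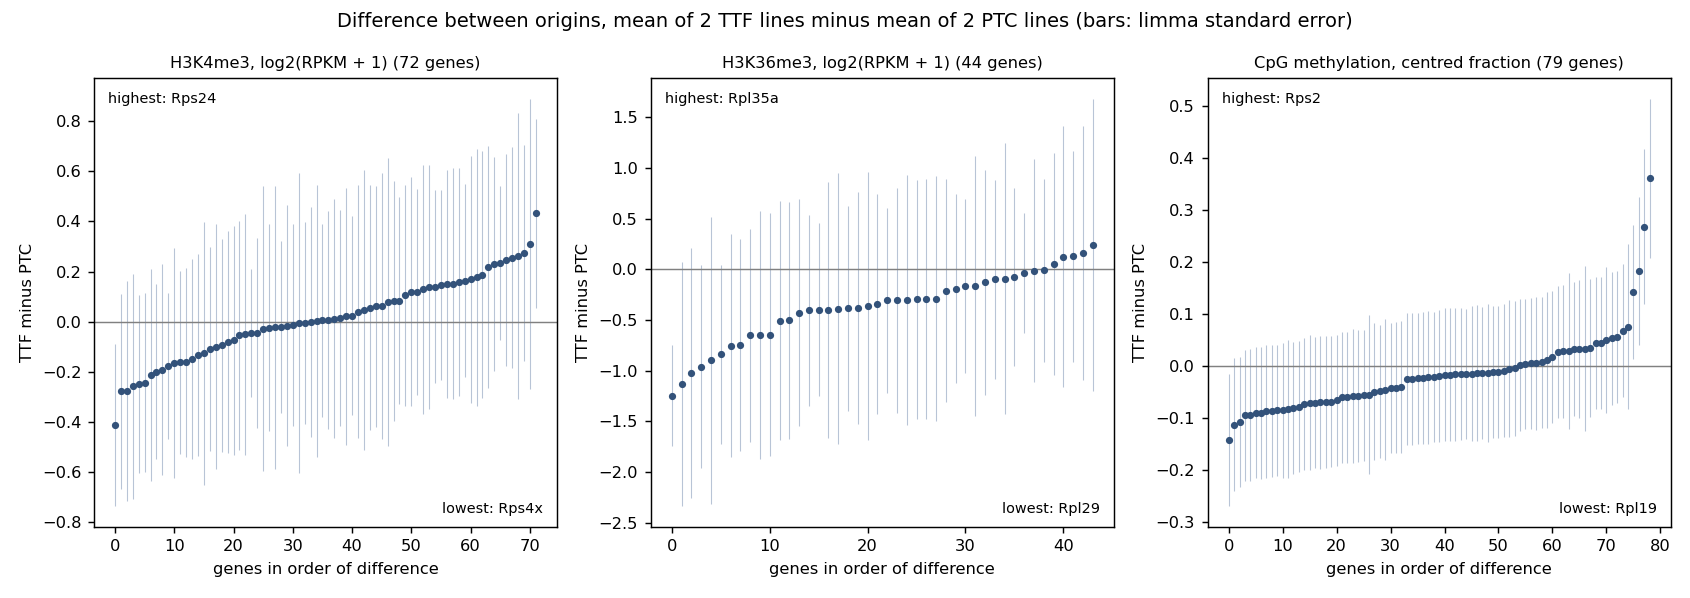
Difference between origins (y axis, mean of 2 TTF lines minus mean of 2 PTC lines, on the scale of the test in each panel) for each ribosomal protein gene with values in 4 lines (x axis, in order of difference). Bars are limma standard errors, and the highest and the lowest gene are named in each panel; 0 genes passed the adjusted threshold.

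Ribosomal proteins whose symbols the rule misses and other genes of translation were marked by H3K4me3 as well. Of 10 further ribosomal protein genes and paralogs in the histone table, all 10 had H3K4me3 in every line, from Rplp1 (3.06, 4.26, 6.53 and 3.23 RPKM in PTC11, PTC12, TTF1 and TTF4) to Rplp2 (4.64, 6.36, 9.67 and 5.09 RPKM), both acidic proteins of the ribosomal stalk. Of 24 translation factors, 22 had it in every line, among them Eef2, which moves the ribosome along the mRNA (5.74, 5.65, 11.8 and 5.91 RPKM), and Eif1, which guards start codon choice (3.77, 3.13, 3.59 and 2.32 RPKM). Of 35 genes of ribosome assembly, 35 did, from Rrp9 (3.32, 3.08, 3.07 and 2.66 RPKM) to Bop1 (4.61, 8.97, 6.05 and 5.25 RPKM). Over all genes, 31.2% had H3K4me3 in every line. H3K36me3 was present in every line at 70%, 83.3% and 65.7% of these lists in turn, against 57.1% of the genes of the rule. Methylation was low in the 3 lists too. Across PTC11, PTC12, TTF1 and TTF4 the median fraction was 0.043, 0.051, 0.048 and 0.192 over the further ribosomal protein genes. Over the translation factors it was 0.045, 0.049, 0.032 and 0.137, and over the assembly genes 0.047, 0.056, 0.046 and 0.151. In these 3 lists limma called 0 genes in any of the 3 assays, and 0 had an unadjusted p under 0.05. Over all genes limma called 0.481%, 0.112% and 0.00395% for H3K4me3, H3K36me3 and CpG methylation. Unadjusted p was under 0.05 at 0.977%, 0.681% and 4.72% of them. With shares this small, 0 adjusted calls in such short lists says little.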

How the data were processed

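For histone marks the authors deposited 1 RPKM value for a gene in each library: reads were aligned to mm10 (Bowtie2 2.1.0), peaks were called in each library against input (MACS2 2.0.10), reads in peaks were counted (bedtools 2.17.0), input was subtracted, and peaks from 2 kb before to 3 kb after the start, or over the gene body for H3K36me3, were averaged. A gene is thus compared only where every library had a peak. For methylation the authors deposited a fraction of methylated CpGs from nanopore reads in 300 bp windows moved by 30 bp within 1 kb of the start; these are not centred in the table. Every column of per-sample values was read.

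Genes with 4 values were compared by limma 3.58.1 (R 4.3.3; lmFit, eBayes with a trend) on log2(RPKM + 1), pseudocount 1, or on fractions minus the mean of their line, with Benjamini-Hochberg adjustment over all genes at 0.05. The fold changes understate those of low genes. The fit was also run on simulated data with independent noise at each gene. Such data lack the shifts that many genes of a line share, so they do not show the error rate here. With 2 lines against 2, an exact permutation test cannot go below p = 0.33, so none is given. Coordinates and CpG counts are from mm10, sequences from the RefSeq table on GRCm38.p6.

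In each assay the genes named are the 3 highest and 3 lowest by mean, the 3 largest differences each way, those passing the test, those missing a value where 10 or fewer, and listed paralogs, X-linked genes and genes of separate roles. Some genes that this rule selects are not reported here. Members, lists and tests were chosen with earlier results of these data known. Normalization, pseudocount, centring, the low-value filter, the trend, each line left out and the membership were varied.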

Additional observations from a re-analysis of the deposited data

How the results depend on the processing

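No paired analysis was possible because the labels number the lines 11 and 12 in PTC and 1 and 4 in TTF, with no shared number. The count of ribosomal protein genes called stayed at 0 in the 3 assays under every alternative fit but one: for CpG methylation it was 2 (Rps2 and Rps4l) without TTF1, and 0 to 2 over the lines left out. With a line left out its origin has 1 line, and the spread comes from the other origin's lines alone, so that such calls assume that the lone line varies like them. The counts over all genes moved more, and the cause was not tested. For H3K4me3, 66 genes were called, 102 with a pseudocount of 0.1, 59 to 108 with a line left out, and 0 with quantile normalization, median centring, a mean of at least 1 RPKM or no variance trend. For H3K36me3, 19 became 44 with a pseudocount of 0.1, 1 to 31 with a line left out, and 0 under the same 4 settings. For methylation, 2 became 0 without centring or with quantile normalization, 1 without the trend and 0 to 1020 with a line left out (1020 without TTF1, 227 without TTF4). The median difference of the ribosomal protein genes ranged from -0.24 to 0.28 for H3K4me3, -0.93 to 0.25 for H3K36me3 and -0.090 to 0.046 for methylation with a line left out. Without centring the methylation median was 0.068. Keeping the genes whose RefSeq start lay within 500 bp of the listed start, an alternative added after seeing the data, gave 0 calls and medians of 0.0012, -0.30 and -0.040. Neither table gives depth or coverage, so that the precision of a single value is unknown, and differences below the spread of the lines were not detectable.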
